A study of Mus musculus with 6 samples.

Results

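The genes described here encode respiratory complex I of mitochondria, followed in platelet RNA of wild-type mice and of mice with a change in integrin β3. They were chosen by symbol: every gene whose name is Nduf followed by a, b, c, s, v, ab or af and a number. The rule found 44 of the 24346 gene symbols in the tables, 37 structural subunits and 7 assembly factors (Ndufaf). It uses names and no measured value. Platelets (thrombocytes) came from 3 wild-type samples and from 3 samples homozygous for the R734C knock-in of β3, the integrin chain that pairs with αIIb in the fibrinogen receptor. The labels give no treatment or age for either group. They do not say whether the 3 samples of a group were separate animals, so the p-values below measure a spread that may be technical. The measure was FPKM, the number of sequenced fragments scaled by transcript length and library size, so levels of different genes are compared per length.

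Complex I is the entry point of the mitochondrial respiratory chain. It takes electrons from NADH, passes them through a flavin and a row of iron-sulphur clusters to ubiquinone, and pumps protons across the inner membrane. Its matrix arm holds the electron path and its membrane arm the proton channels; core subunits do the catalysis, accessory subunits surround and stabilise them, and assembly factors help to build the complex without staying in it. Platelets have mitochondria but no nucleus, so most of their mRNA was made in the megakaryocyte. Ndufa4, named as a complex I subunit, is now placed with cytochrome c oxidase (complex IV) and is kept here because the rule is by name. Mitochondrially encoded subunits were not analysed here.

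All libraries carried platelet mRNA: 8 platelet markers summed to 42658 to 48185 FPKM, and 8383 to 9006 genes were above 0. The 8 erythroid markers summed to 37397 to 92489 FPKM in wild-type libraries, against 24541 to 178193 in the knock-in, highest in library 1 of each group. Neutrophil markers summed to at most 2.19 FPKM, with 3 of 8 (Camp, Mpo and Elane) at 0 throughout. B cell markers reached at most 0.693 (Ms4a1 at 0), and T and NK cell markers 2.67 to 8.83, nearly all of it Nkg7, with 5 of 8 at 0. Of 7 monocyte markers, Lyz2 stood at 7033 to 9127 FPKM, while Csf1r, Adgre1, Ms4a6c and Fcgr1 stayed under 1. Cd14 lay at 0.404 to 3.21 FPKM and Ly6c2 at 0 to 1.73. All values of a library summed to 641278 to 708432 FPKM for the wild type, against 758381 to 856863 for the knock-in. The files hold no read counts, so the depth is unknown. Beyond leaving out the libraries richest in haemoglobin, the part of erythroid RNA in the results was not tested.

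Complex I mRNAs were present at very unequal levels. Of the 37 structural subunits, 34 were above 0 in all 6 libraries. By wild-type mean, 6 had 100 FPKM or more, 13 lay between 10 and 100, 14 between 1 and 10, and 4 under 1, with a median of 11.9. Summed over the subunits, wild-type libraries 1, 2 and 3 held 2395, 2723 and 2798 FPKM, or 0.338%, 0.425% and 0.434% of all FPKM. Knock-in libraries 1, 2 and 3 held 2941, 3554 and 3294 FPKM, or 0.343%, 0.469% and 0.422%. The sums did not overlap between the groups, while the shares did. Without Ndufa4 the sums were 1743, 2080 and 2150 against 2029, 2373 and 2276 FPKM, which overlapped.

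The most abundant subunit mRNAs, Ndufa4, Ndufa3, Ndufa1, Ndufa2 and Ndufa7, made up 74.5% to 78.0% of the summed level in wild-type libraries, against 81.3% to 84.2% in the knock-in. All encode small proteins. Wild-type means ran from 648 ± 4.95 FPKM for Ndufa4 to 125 ± 6.25 for Ndufa7 (SD, n = 3), ranks 145 and 483 among the 4859 genes tested. Ndufs1, the large iron-sulphur subunit of the matrix arm, had 2.58 ± 0.828 FPKM (SD, n = 3, rank 3533). Ndufa1, a subunit of the same complex, stood 176-fold above it. The low level of Ndufs1 is uncertain, because its exons overlap other genes on the opposite strand. The annotated transcripts also differ in length, with 419 bases for Ndufa1 and 2661 for Ndufs1.

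**Figure D1:**
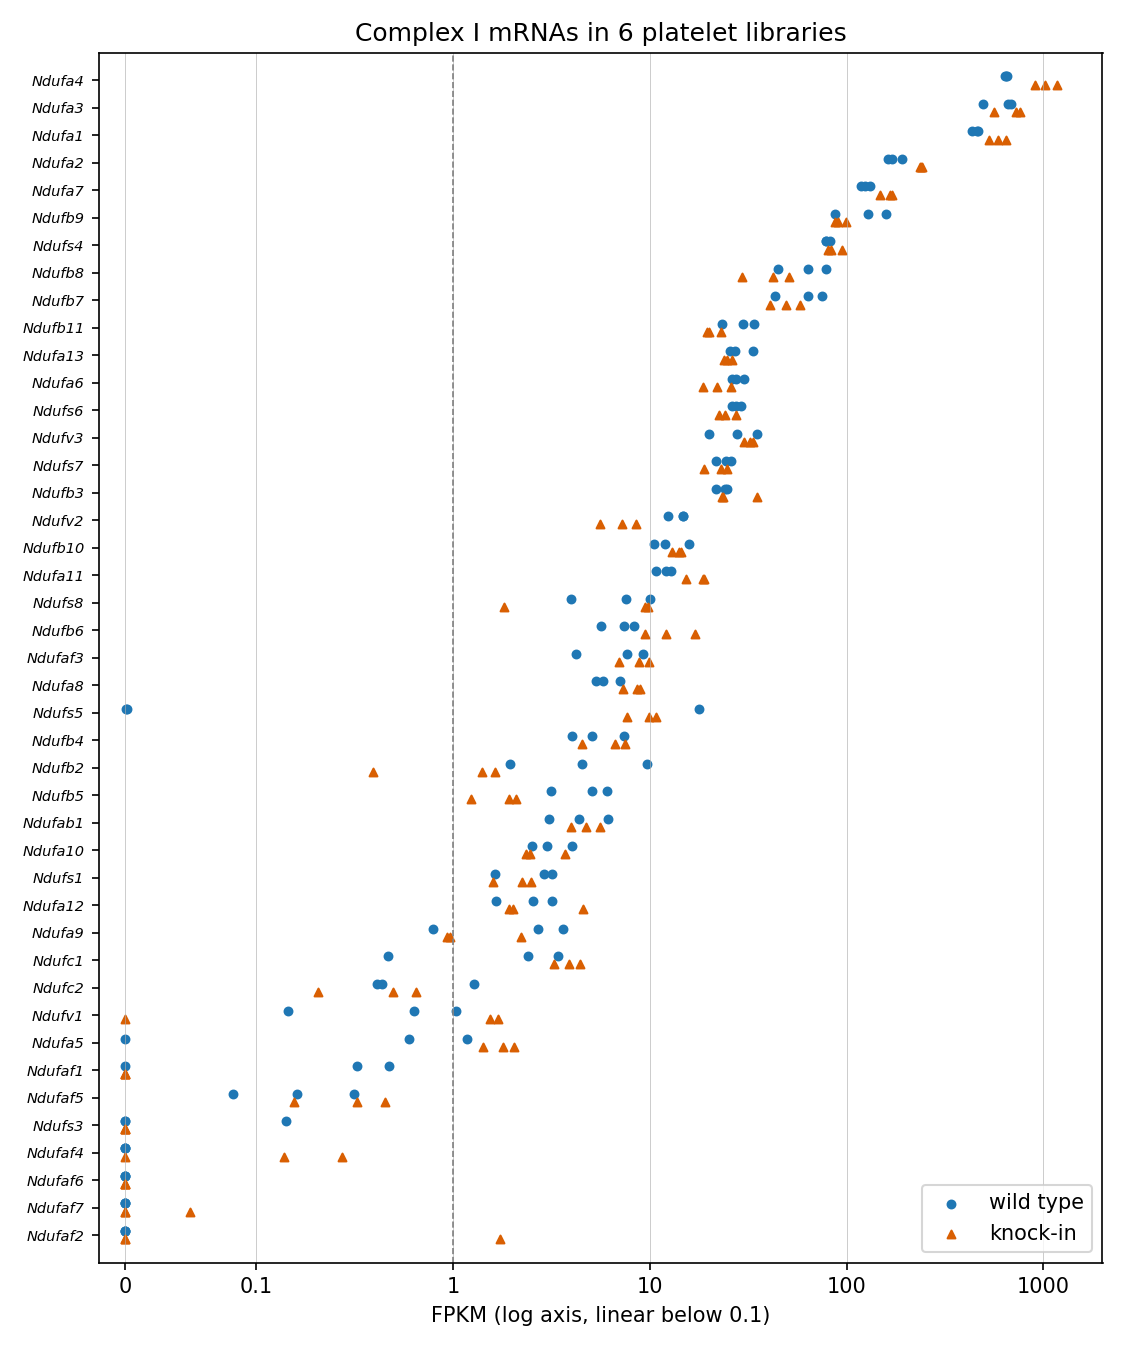
FPKM of complex I genes in the 6 libraries, ordered by the wild-type mean (log axis, linear below 0.1; circles wild type, triangles knock-in, n = 3 each; the dashed line marks 1 FPKM). Values reach from 0 to over 1000, and Ndufa4, Ndufa3 and Ndufa1 lead the wild-type means.

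Levels differed between the roles. The 7 nuclear-encoded core subunits had a median wild-type level of 7.18 FPKM and a highest of 23.9 (Ndufs7). The 9 accessory subunits of the matrix arm had a median of 27.6 and reached 175 (Ndufa2). Accessory subunits of the membrane arm, 20 in the tables, had a median of 9.48 and reached 612 (Ndufa3). Core subunits have the longer mRNAs: the annotated principal transcript, the longest where several are marked, had a median of 1623 bases for core, 875 for matrix-arm and 747.5 for membrane-arm accessory subunits. Across the 37 subunits the Spearman correlation of level with this length was -0.556, and -0.400 with the shortest principal transcript. Over 4694 tested genes with a length the values were -0.121 and -0.124. Genes share their libraries and are not independent replicates, so these values are descriptions.

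The comparison of genotypes asked which of these mRNAs differ in platelets with the integrin change. Of the 34 structural subunits that passed the filter (a mean of at least 1 FPKM over the 6 libraries), 2 were higher in the knock-in, Ndufa4 and Ndufa2, and 1 was lower, Ndufv2 (limma, adjusted p under 0.05 over all 4859 genes). That is 8.82% of them, where 8.36% of all tested genes passed (4.36% higher and 3.99% lower), so the share of subunits that changed was near the background. The median log2 fold change of the 34 was 0.10, against -0.01 over all tested genes, and 18 of 34 were positive. Values of the groups did not overlap for 8 higher and 5 lower subunits (38.2% in all), against 14.9% higher and 15.8% lower of all tested genes (30.7%). The 8 include Ndufa5 (wild-type mean 0.591 FPKM, knock-in mean 1.75), which passed the filter through its knock-in values. Fold changes were computed after adding 1 to each FPKM, which shrinks those of low genes. In bulk platelets, fewer cells with an mRNA and less of it per cell cannot be told apart.

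**Figure D2:**
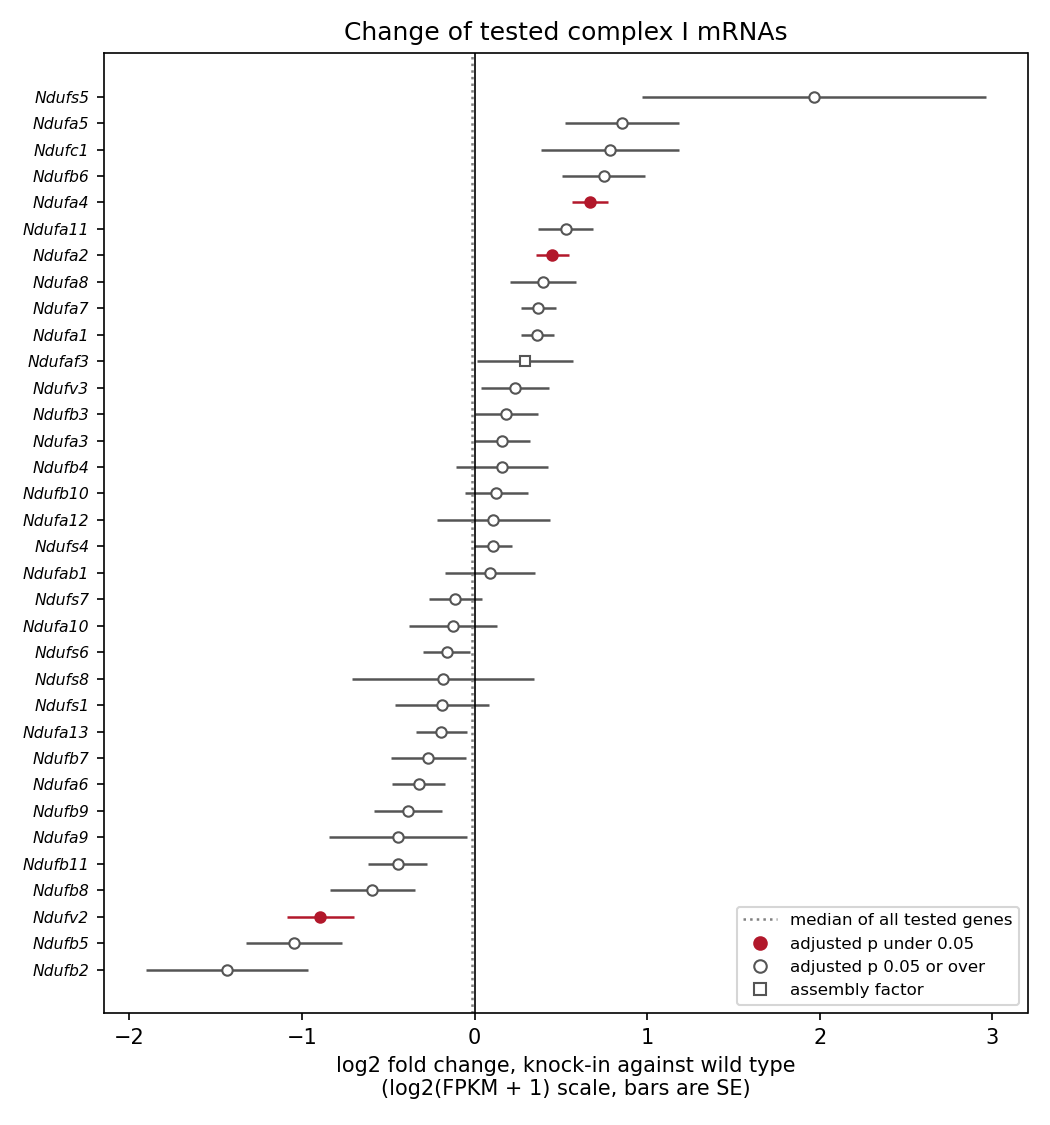
Log2 fold change of tested complex I genes, knock-in against wild type, with its SE (filled red, limma adjusted p under 0.05; square, assembly factor Ndufaf3; dotted line, median of all tested genes). Values spread to both sides of 0, from -1.43 for Ndufb2 to 1.97 for Ndufs5 at a pseudocount of 1, and only Ndufa4, Ndufa2 and Ndufv2 are filled.

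Among the 5 core catalytic subunits tested, Ndufv2 fell and 0 rose. Ndufv2 carries an iron-sulphur cluster beside the site where NADH is oxidised, and lies on chromosome 17 at 66078638 to 66101559 of GRCm38. Wild-type libraries 1, 2 and 3 held 12.4, 14.8 and 14.7 FPKM of it, and knock-in libraries 1, 2 and 3 held 8.55, 5.59 and 7.22. All knock-in values lay below all wild-type values. The log2 fold change was -0.89 with an SE of 0.20 (limma adjusted p = 0.0292), 1.86-fold lower. The direction held in every setting tried. The limma adjusted p missed the threshold without a filter on low values (0.0841), without the variance trend (0.0666) and with the replicate block given at the end. It also missed when wild-type library 2 (0.118) or 3 (0.103) or knock-in library 2 (0.0947) or 3 (0.0938) was left out.

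Its partner in the NADH-binding module, Ndufv1, which binds the flavin, was listed at 1.04, 0.631 and 0.145 FPKM in wild-type libraries and at 0, 1.70 and 1.54 in knock-in libraries. With a mean of 0.842 over the 6 libraries it was the highest structural subunit left out by the filter, while Ndufa5 at 1.17 was the lowest kept. Ndufs1 had 2.91, 1.64 and 3.20 against 2.25, 1.6 and 2.48 FPKM, with overlapping groups (log2 fold change -0.19, limma adjusted p = 0.722). Its exons share 489 bases with Ino80dos on the opposite strand, itself at 1.70 to 4.5 FPKM, so its low level is uncertain.

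Ndufs7 and Ndufs8 carry the last iron-sulphur clusters before ubiquinone. Ndufs7 had 25.8, 21.6 and 24.4 FPKM in wild-type libraries, and 18.9, 23.0 and 24.6 in knock-in libraries, with overlap (log2 fold change -0.11, limma adjusted p = 0.706). Ndufs8 had 3.97, 10.001 and 7.57 against 1.82, 9.45 and 9.82 FPKM. Library 1 was the lowest of both groups, and the log2 fold change of -0.18 (limma adjusted p = 0.874) turned to 0.45 without knock-in library 1. Ndufs3, a core subunit near the ubiquinone site, was listed at 0.141 FPKM in wild-type library 1 and at 0 elsewhere, where a 0 may also stand for an estimate that failed. Of the 44 members it alone had a near-identical annotated copy, Gm12251.

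Among the 9 accessory subunits of the matrix arm, Ndufa2 rose and 0 fell. Ndufa2, a small subunit at the NADH-oxidising end, lies on chromosome 18 at 36742332 to 36744557 of GRCm38; its exons share 66 bases with Tmco6, which stayed at or under 0.795 FPKM. Wild-type libraries held 170, 163 and 192 FPKM of it, knock-in libraries 241, 236 and 240. The knock-in libraries were close together and above all wild-type values. The log2 fold change was 0.45 with an SE of 0.10 (limma adjusted p = 0.0272), 1.37-fold higher. The direction held in every setting. However, the limma adjusted p missed the threshold with no filter (0.0734), quantile normalization (0.0524), no variance trend (0.115) or equal library totals (0.428). It also missed without any library but knock-in library 1 (0.0549 to 0.115), and with the replicate block given at the end. After removal of the trend on transcript length the log2 fold change was 0.089 (limma adjusted p = 0.666).

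Ndufa7, an accessory subunit of the same arm, had 119, 131 and 125 FPKM in wild-type libraries, against 148, 171 and 166 in knock-in libraries. The groups did not overlap, and the difference missed the threshold (log2 fold change 0.37, limma adjusted p = 0.0621). Ndufa5 was listed at 0.599, 0 and 1.17 against 2.04, 1.79 and 1.42 FPKM (log2 fold change 0.85, limma adjusted p = 0.152), and passed the filter through its knock-in values. Ndufs4, whose loss in people causes Leigh syndrome, had 78.8, 78.4 and 82.3 against 83.5, 94.9 and 80.2 FPKM, with overlap (log2 fold change 0.11, limma adjusted p = 0.607). The other matrix-arm subunits, Ndufv3, Ndufs6, Ndufa6, Ndufa9 and Ndufa12, had log2 fold changes from -0.44 to 0.23. Of these, Ndufa6 alone did not overlap, with 18.7 to 25.8 FPKM in knock-in libraries below 26.2 to 30.2 in wild-type libraries (limma adjusted p = 0.237).

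Of the 19 tested accessory subunits of the membrane arm, 0 passed in limma, with 3 positive and 4 negative at an unadjusted p under 0.05. Over all 4859 tested genes 606 were positive and 628 negative at that level. Ndufa1, an X-linked small subunit, had 437, 467 and 458 FPKM in wild-type libraries, against 528, 643 and 587 in knock-in libraries. Its groups did not overlap, and the difference missed the threshold (log2 fold change 0.36, limma adjusted p = 0.0558). Ndufa3, another small subunit of this arm, had 492, 685 and 660 against 561, 727 and 764 FPKM, with overlapping groups (log2 fold change 0.16, limma adjusted p = 0.594). The sign of both turned when the length trend was removed, to -0.053 and -0.24.

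Ndufb5 and Ndufb2, subunits with a transmembrane helix, had negative values. Ndufb5 had 3.13, 6.06 and 5.11 against 1.92, 2.08 and 1.24 FPKM, with all knock-in values below the wild-type ones (log2 fold change -1.05, limma adjusted p = 0.0554). It passed as lower in 7 other settings, among them removal of the length trend (-1.17, limma adjusted p = 0.0414). Ndufb2 had 4.52, 1.95 and 9.66 against 1.40, 1.64 and 0.390 FPKM, also without overlap (log2 fold change -1.43, limma adjusted p = 0.1001). Its log2 fold change was -2.06 with a pseudocount of 0.1 and -0.69 with 5, and that of Ndufb5 -1.38 and -0.52. Exons of Ndufb5 share 616 bases with Mrpl47, and those of Ndufb2 share 146 with Braf and 156 with the antisense gene Gm16272, all on the opposite strand, from which these libraries cannot separate them. Ndufb2 also shares 145 bases with Gm42420 on its own strand. Mrpl47 was listed at 0 in all libraries and Braf at 1.11 to 2.70 FPKM.

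Ndufs5, on the intermembrane side of the membrane arm, had the highest fitted log2 fold change of the members and very uneven wild-type values. It was listed at 0.00103, 17.7 and 0.000637 FPKM in wild-type libraries 1, 2 and 3, against 10.8, 7.70 and 9.87 in knock-in libraries 1, 2 and 3. Wild-type library 2 lay above all knock-in libraries and the other two near 0. The log2 fold change of 1.97 had an SE of 0.996 (limma adjusted p = 0.264). Without wild-type library 2 it was 3.37 and passed (limma adjusted p = 0.0199), while without wild-type library 1 or 3 it was 1.26 in both cases (limma adjusted p = 0.522 and 0.551). The size also followed the pseudocount, at 4.06 with 0.1 and 0.80 with 5.

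Ndufb7, Ndufb8 and Ndufb9, subunits toward the far end of the membrane arm, were lowest in library 1 within the wild type. This was not particular to them: of the 34 tested subunits, 14 were lowest in wild-type library 1 and 15 in library 2. Within the knock-in, 8 were lowest in library 1. Ndufb9 had 87.5, 129 and 158 against 99.5, 87.6 and 90.9 FPKM, with overlap (log2 fold change -0.39, limma adjusted p = 0.268). Ndufb8 had 44.8, 63.3 and 78.4 against 42.2, 50.8 and 29.4 FPKM, with overlap (log2 fold change -0.59, limma adjusted p = 0.174). Exons of Ndufb9 share 201 bases with Gm49356 and those of Ndufb8 share 134 with Gm20538, both on the same strand. Library 1 of both groups was the richest in haemoglobin mRNA. Without both of these libraries, a setting chosen after the values were seen, Ndufb8, Ndufb9, Ndufb5 and Ndufv2 passed as lower and Ndufa1, Ndufa2, Ndufa4 and Ndufa7 as higher. Calls over all tested genes also went from 406 to 728 in that setting.

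The other members of the membrane arm lay lower and included subunits of either sign. Ndufa11 had 12.1, 10.7 and 12.8 against 18.8, 18.7 and 15.2 FPKM without overlap (log2 fold change 0.53, limma adjusted p = 0.0821). Ndufb6 had 5.64, 7.42 and 8.28 against 12.1, 16.9 and 9.50, and Ndufa8 5.81, 5.32 and 7.02 against 8.56, 8.89 and 7.34 FPKM. In both the knock-in values lay above all wild-type values, with limma adjusted p-values of 0.0956 and 0.236. Exons of Ndufb6 share 257 bases with Smim27 on the opposite strand. Ndufb11, X-linked like Ndufa1, had 23.3, 29.8 and 33.9 against 19.9, 19.6 and 23.0 FPKM, with the knock-in lower throughout (log2 fold change -0.45, limma adjusted p = 0.141). Groups overlapped for Ndufb7, Ndufa13, Ndufb3, Ndufb10, Ndufb4, Ndufa10, Ndufc1 and Ndufab1, the mitochondrial acyl carrier protein, with log2 fold changes from -0.27 (Ndufb7) to 0.78 (Ndufc1). Ndufc2 stayed under the filter, at 0.412 to 1.28 FPKM in wild-type libraries, against 0.206 to 0.650 in the knock-in.

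Ndufa4 rose, with the smallest adjusted p of the members. Wild-type libraries 1, 2 and 3 held 652, 642 and 649 FPKM, and knock-in libraries 1, 2 and 3 held 913, 1181 and 1018. Wild-type values were almost equal, and all knock-in values lay above them. The log2 fold change was 0.67 with an SE of 0.10 (limma adjusted p = 0.0105), 1.59-fold higher. The gene lies on chromosome 6 at 11900292 to 11907497 of GRCm38. The direction held in every setting, but the limma adjusted p missed the threshold with no variance trend (0.0750), when wild-type library 2 (0.0580) or knock-in library 3 (0.0583) was left out, after removal of the length trend (log2 fold change 0.33, 0.0841), and with equal library totals (0.41, 0.122). Scaling to equal totals moved the median log2 fold change of all tested genes to -0.23, left Ndufv2, Ndufb2 and Ndufb5 as lower and 0 subunits as higher, and gave 46 higher and 455 lower calls over all genes in place of 212 and 194.

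**Figure D3:**
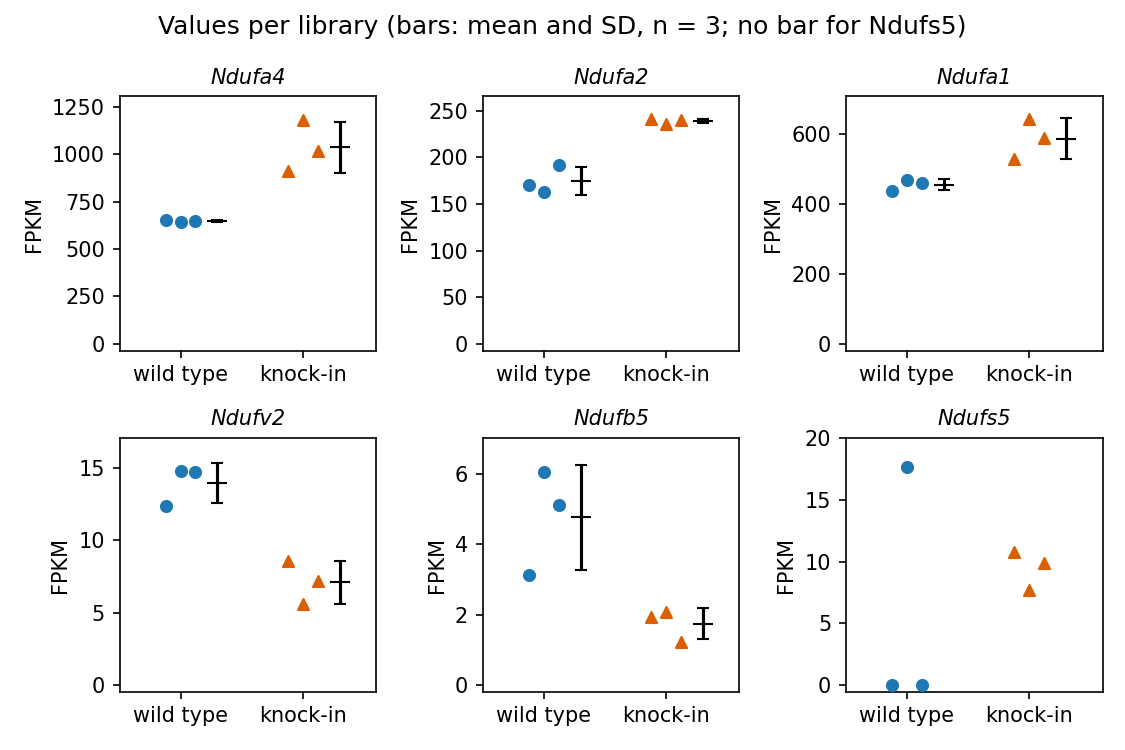
FPKM per library of 6 subunits (circles wild type, triangles knock-in; bars mean and SD, n = 3; linear axes from 0; no bar for Ndufs5). Ndufa4, Ndufa2 and Ndufa1 separate upward and Ndufv2 and Ndufb5 downward, while wild-type library 2 alone carries the wild-type signal of Ndufs5.

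Short transcripts tended to have positive log2 fold changes, among complex I genes and among all genes. Across the 34 tested subunits the Spearman correlation of log2 fold change with transcript length was -0.423, and over 4694 tested genes it was -0.215 (-0.404 and -0.226 with the shortest principal transcript). The 7 subunits with a transcript under 600 bases had a median log2 fold change of 0.36 and the 27 others -0.11. Over all genes the medians were 0.45 for 146 transcripts under 600 bases and -0.03 for 4548 longer ones. These classes use the longest principal transcript. By the shortest, Ndufa4, Ndufb2, Ndufc1 and Ndufs5 would also fall under 600 bases, with log2 fold changes of 0.67, -1.43, 0.78 and 1.97. With the trend removed, the median of the 34 subunits was -0.12 and the calls were Ndufv2, Ndufb5 and Ndufa6, all lower. The same fit over 4694 genes had a median of 0.0042 and called 134 higher and 157 lower.

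**Figure D4:**
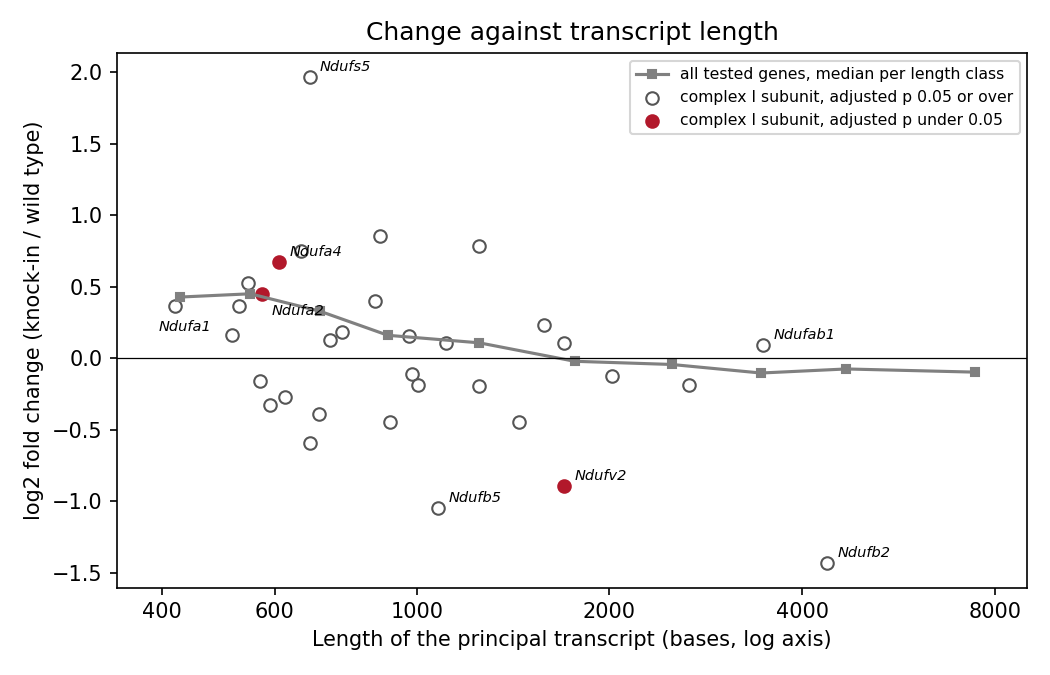
Log2 fold change of tested structural subunits against the length of the longest principal transcript (log axis), with the median of all tested genes in 10 length classes (grey line). Ndufa2 and Ndufa1 lie near the grey line, Ndufa4 above it, and Ndufv2, Ndufb5 and Ndufb2 below it.

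Assembly factors were listed at low values or at 0. The mitochondrial ribosomal genes Mrpl45 and Mrpl47 were also listed at 0 in all libraries. Whether a 0 stands for an absent mRNA or a failed estimate was not tested. Of the 7 Ndufaf genes, 6 were above 0 in any library and 2, Ndufaf3 and Ndufaf5, in all. Ndufaf3, which acts early in building the matrix arm, was the only Ndufaf gene tested, with 7.69, 4.22 and 9.18 against 6.95, 8.76 and 9.92 FPKM. The groups overlapped (log2 fold change 0.29, limma adjusted p = 0.578). Ndufaf5 had 0.0822 to 0.312 FPKM in wild-type libraries, against 0.156 to 0.451 in the knock-in. Ndufaf1 was listed at 0, 0.474 and 0.326 in wild-type libraries and at 0 in all knock-in libraries, and Ndufaf4 at 0 in all wild-type libraries and at 0.137, 0.272 and 0 in knock-in libraries. Ndufaf2 and Ndufaf7 were above 0 in 1 library each, and Ndufaf6 in none of the 6.

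Of 8 assembly factors under other names, Foxred1, an oxidoreductase-like protein, was the only one tested (1.40 ± 0.868 against 0.895 ± 0.131 FPKM, SD, n = 3; limma adjusted p = 0.622). Tmem126b, Nubpl and Tmem186 were listed at 0 throughout. Of 11 regulators of mitochondrial genes, 3 were tested and 0 passed in limma (0 also at an unadjusted p under 0.05), while the coactivators Ppargc1a, Ppargc1b and Pprc1 were listed at 0 in every library. Of 9 tested citric acid cycle genes, 0 passed in limma, with 1 at an unadjusted p under 0.05. Over all 4859 tested genes, 1234 had an unadjusted limma p under 0.05. Of 11 tested outer membrane and import genes, 1 passed (9.09%, where 8.36% of all tested genes passed). It was Vdac1, an outer membrane channel, at 96.4 ± 4.89 against 132 ± 9.88 FPKM (SD, n = 3, limma adjusted p = 0.0356).

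Beside complex I, the list of complexes II to IV and ATP synthase had 6 higher and 5 lower of 41 tested (26.8%, where 8.36% of all tested genes passed), with a median log2 fold change of -0.03. The split was 1 higher and 7 lower with equal library totals, and 1 higher and 4 lower with the length trend removed. The difference between that share and the 8.82% of complex I was not tested. Ndufa4, now placed with complex IV, is counted in the 8.82% and not in the other list. The largest changes among them were of either sign. Uqcrb of complex III (24.8 ± 0.690 against 10.5 ± 0.796 FPKM, SD, n = 3) and the ATP synthase genes Atp5c1 (31.3 ± 5.96 against 17.1 ± 4.27), Atp5o (21 ± 2.70 against 12.2 ± 1.84) and Atp5e (142 ± 14.2 against 86.4 ± 4.95) fell. Cox7a2l, a factor in joining respiratory complexes, rose (56.3 ± 2.96 against 119 ± 19.2 FPKM, SD, n = 3). Mitochondrial ribosomal proteins had 1 higher, Mrpl42 (3.77 ± 0.950 against 13.1 ± 2.77 FPKM, SD, n = 3), and 0 lower of 33 tested (3.03%), with a median of 0.05.

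The sequences upstream of Ndufa4 and Ndufv2 are shown because the former rose and the latter fell. They come from RefSeq (GRCm38.p6) and run 5′ to 3′ on the strand of the gene over the 250 bases before its start, chr6:11907451-11907700 and chr17:66101560-66101809, both on the minus strand. Starts are those of RefSeq: that of Ndufa4 lies inside the GENCODE gene given above, so part of its window does too.
Ndufa4 upstream: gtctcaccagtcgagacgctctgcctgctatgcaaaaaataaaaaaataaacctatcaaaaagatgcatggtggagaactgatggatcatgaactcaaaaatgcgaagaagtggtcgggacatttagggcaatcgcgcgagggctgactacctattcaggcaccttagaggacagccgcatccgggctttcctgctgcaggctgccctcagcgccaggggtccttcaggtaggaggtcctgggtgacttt
Ndufv2 upstream: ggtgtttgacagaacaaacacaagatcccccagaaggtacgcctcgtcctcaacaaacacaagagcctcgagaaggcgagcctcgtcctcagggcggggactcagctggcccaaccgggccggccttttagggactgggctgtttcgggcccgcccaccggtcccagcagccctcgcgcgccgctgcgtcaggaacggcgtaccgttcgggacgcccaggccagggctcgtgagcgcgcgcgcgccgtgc
No stretch is in capitals, because none of the motifs described next occurs in either.

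Motifs named for factors known to act at mitochondrial genes were searched on both strands in windows of 300 bases (250 before and 50 after the start), for 39 of the 44 members (41 windows) and for all 32851 windows. The NRF1 motif, GCGCA and GCGC with any 1 base between, was in 24.4% of member windows and 4.60% of all windows. The same site of Ndufa5 was counted in more than 1 window. The set of all windows was not limited to genes expressed in platelets. The YY1 letters AAGATGGCG were in 12.2% and 1.40%, the ETS letters CCGGAAG in 12.2% and 8.86%, and the ERR letters TCAAGGTCA in 0 of 41 member windows and 0.423% of all. A match is a description and no proof of binding. Stretches with the NRF1 match in capitals are shown for 4 tested subunits with log2 fold changes of either sign, at chr17:56717687-56717726 (plus strand), chr2:36049344-36049383, chr4:123718260-123718299 and chr13:73328483-73328513 (minus strand).
Ndufa11: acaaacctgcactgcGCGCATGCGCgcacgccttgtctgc
Ndufa8: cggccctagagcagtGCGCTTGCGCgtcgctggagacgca
Ndufs5: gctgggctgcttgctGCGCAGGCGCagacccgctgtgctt
Ndufs6: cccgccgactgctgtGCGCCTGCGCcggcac
The matches of Ndufa8 and Ndufs6 lie on the opposite strand, so their capitals show the reverse complement of the letters given. None of these 4 matches overlapped another motif searched. The log2 fold changes were 0.53 for Ndufa11, 0.40 for Ndufa8, 1.97 for Ndufs5 and -0.16 for Ndufs6, a zinc-binding subunit of the matrix arm, and 0 of the 4 passed the test.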

How the data were processed

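RNA of 6 platelet samples, 3 wild type and 3 homozygous knock-in, was sequenced; titles gave the groups and numbers. Libraries used SMART-Seq HT and Nextera XT, per the labels' protocols; these kits do not mark the strand, so overlapping genes on opposite strands cannot be told apart. The authors deposited 1 table of FPKM by gene symbol for each library. The submitters' processing notes name Cuffdiff 2.2.1, TopHat2 2.1.1, SAMtools 0.1.18, Bowtie2 2.2.8 and build mm10; settings and annotation are not given in the sources used here.

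Testing covered 4859 of 24346 genes (mean of 1 FPKM or more) and used log2(FPKM + 1) in limma 3.58.1 (R 4.3.3), with a term for group, a variance trend, and Benjamini-Hochberg adjustment over all tested genes (threshold 0.05). The method was tested on simulated data. Lists are described by counts and medians. Of the members, 1 is counted in these but not reported here by name or drawn. By rule, values per library are given for members past the threshold, core subunits, the 5 most abundant and the 5 of largest absolute change among tested subunits, and tested assembly factors; other lists name up to 5 genes past the threshold by size of change. Ndufa6, Ndufa8, Ndufa11, Ndufb6, Ndufb8, Ndufb9, Ndufb11, Ndufs4 and Ndufs6 were singled out after their values were seen, as were the genes listed at 0, Foxred1 and the overlap partners. The members and lists were chosen with earlier results of these data known. Transcript lengths, positions and exon overlaps came from GENCODE M21 (GRCm38), with lengths for 4694 tested genes; a near-identical copy is a transcript of another gene with at least 95% identity over at least 70% of the member's (blastn 2.17.0). Same-numbered libraries did not all deviate together, so no block was used. Alternatives were other pseudocounts, filters, scalings, variance settings, a replicate block, removal of the length trend (a loess fit of each library's deviation) and leaving out each library.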

Additional observations from a re-analysis of the deposited data

How the results depend on the processing

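The pseudocount (0.1 or 5), median-of-ratios scaling and scaling without erythroid and the most abundant genes each left Ndufa2, Ndufa4 and Ndufv2 as the 3 subunit calls. The count became 1 with no filter on low values, 5 when means had to reach 5 FPKM, 5 under robust estimation of the variance, 6 with libraries weighted, 0 without the variance trend (1197 of all genes at an unadjusted p under 0.05) and 8 without both haemoglobin-rich libraries. Leaving out single libraries gave 0 to 5 subunit calls: 0 without knock-in library 3, 5 without knock-in library 1, 4 without wild-type library 1 and 1 without any other. The count over all genes, 406, became 107 with no filter, 0 without the variance trend and 728 without both haemoglobin-rich libraries. At a mean of at least 5 FPKM it was 511 of 2750 genes, with 25 subunits tested. Of 4859 genes, 511 passed under robust estimation of the variance and 603 with libraries weighted. Leaving out single libraries gave 0 to 610 calls over all genes (0 without knock-in library 3, with 994 at an unadjusted p under 0.05). The median of tested subunits was -0.13 with equal totals (35 tested), and over the same 34 it was -0.12 with the length trend removed and -0.099 with the shortest principal transcript in that step, and -0.035 to 0.090 without single libraries. Ndufaf3 kept a positive value in every setting, from 0.01 without wild-type library 2 to 0.50 without both haemoglobin-rich libraries (0.41 with libraries weighted). Signs turned for Ndufa1 (-0.053 and -0.040 with the longest and shortest principal transcript in the length step), Ndufa3 (-0.24 and -0.21, and -0.10 with equal totals), Ndufa7 (-0.021 with the longest), Ndufs7 (0.049 without both haemoglobin-rich libraries) and Ndufs8 (0.13 in that setting, 0.067 without wild-type library 2 and 0.45 without knock-in library 1, within -0.52 to 0.45 over single libraries left out). None of these 5 genes had passed the test. The cause was not tested. The replicate block left 1 subunit call, Ndufa4; Ndufa2 (0.0512) and Ndufv2 (0.0552) missed the threshold, and 306 of all genes passed. Deviations of same-numbered libraries correlated at 0.158, 0.0235 and 0.141 for numbers 1, 2 and 3, and knock-in library 2 correlated best with wild-type library 3 (0.0674), so the numbers were not taken to pair samples. For complexes II to IV and ATP synthase, 11 calls became 3 with no filter, 0 without the variance trend, 5 with the length trend removed (5 also with the shortest transcript) and 0 to 12 without single libraries. For mitochondrial ribosomal proteins, 1 call became 2 at a mean of at least 5, with equal totals or under robust estimation of the variance, 3 with libraries weighted, 0 without the variance trend, 5 without both haemoglobin-rich libraries and 0 to 5 without single libraries. The files hold no counts, so counting error at low levels, where many core subunits and assembly factors lie, is unknown.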
